A study of Mus musculus with 15 samples.

Results

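The major histocompatibility complex (MHC) genes of the mouse, named H2, were followed across splenic CD4+ T cells and thymocytes of WT mice and of mice lacking N-ras or H-ras. Probe sets were chosen by their annotated symbol, taking every probe set with a symbol that starts with H2- together with B2m, Cd74 and Ciita. This gave 37 of 19324 gene symbols and 67 of 45101 probe sets on the CD4+ T-cell arrays, and 57 of 22690 on the smaller thymocyte arrays, each of which is also among the 67. Of the 67, 40 were assigned to class I, 26 to class II, and 1 (H2-Ke6, a metabolic enzyme gene that lies in the complex) to neither. The gene group itself was picked from earlier results on these arrays, in which single replicates stood far from the others with and without stimulation. Those jumps and the thymocyte differences are therefore given as a description, with no test.

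Class I molecules sit on nearly every nucleated cell. They pair a polymorphic heavy chain (H2-K1 and H2-D1 are the classical ones, and the H2-Q, H2-T and H2-M genes the nonclassical ones) with the small constant chain B2m, and present peptides from inside the cell to CD8+ T cells. Class II molecules are pairs of an alpha and a beta chain (H2-Aa with H2-Ab1, H2-Ea with H2-Eb1) that present peptides from outside the cell to CD4+ T cells. They are made chiefly by B cells, dendritic cells and thymic epithelium under the master regulator Ciita, and resting mouse CD4+ T cells are not known for making them. Cd74 is the invariant chain that escorts new class II molecules, and H2-DM and H2-O control which peptide they keep.

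The CD4+ T cells came from spleens of 6 to 20 week old mice, N-ras KO or WT of the same litters, and were cultured overnight either unstimulated or with a low-level TCR stimulus, 1 µg/ml each of antibodies to CD3 and CD28. Each of these 4 groups had 3 arrays, numbered 1 to 3. The thymocytes came from 1 sample each of H-ras KO, N-ras KO and WT mice, with no treatment and no replicate. Their age is 6 weeks in the methods and 6 to 20 weeks in the labels. All mice were labelled as 129/SJ, and both knockout lines were bred from heterozygotes. By the methods each repetition used another mouse, but they leave unclear whether stimulated and unstimulated cells of one number shared a mouse. Deposited values are log2 intensities from which a baseline had been subtracted. The 3 unstimulated arrays of WT, and likewise those of N-ras KO, had a median of 0 on each of the 45101 probe sets, so a value tells how far an array lay from its own genotype's unstimulated median, not how bright the gene was. Levels can thus be compared between arrays of one genotype, levels of unstimulated WT and N-ras KO cells cannot, and a stimulated WT minus N-ras KO difference is a difference of 2 such distances.

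Nras itself went against the labels on some arrays. On probe set 1454060_a_at, the unstimulated N-ras KO arrays read 0.00, -0.04 and 2.04 and the WT arrays -2.68, 0.28 and 0.00. With stimulation the N-ras KO arrays read 0.51, 0.08 and 2.09 and the WT arrays -3.04, -0.10 and 0.00. The arrays labelled N-ras KO 3 were thus high and those labelled WT 1 low within their own groups. Member counts of jumps, of paired responses past 1.5-fold and of stimulated WT minus N-ras KO are also given without them. Most other counts that rest on them are not.

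Promoters of 4 members whose probe sets shifted are shown, 2 of class I and 2 of class II. Each line gives the 150 bases before the transcription start, 5′ to 3′, from RefSeq on GRCm38.p6, a C57BL/6J assembly and not the strain of these mice. Capitals mark GATTGG, or its reverse complement CCAATC, the core of the Y box bound by NF-Y.
H2-D1: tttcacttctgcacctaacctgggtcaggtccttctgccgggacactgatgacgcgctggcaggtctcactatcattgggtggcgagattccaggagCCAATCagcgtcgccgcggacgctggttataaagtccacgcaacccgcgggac
H2-T23: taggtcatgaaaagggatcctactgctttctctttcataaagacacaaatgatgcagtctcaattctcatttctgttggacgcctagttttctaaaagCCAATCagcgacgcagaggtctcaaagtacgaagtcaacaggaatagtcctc
H2-Aa: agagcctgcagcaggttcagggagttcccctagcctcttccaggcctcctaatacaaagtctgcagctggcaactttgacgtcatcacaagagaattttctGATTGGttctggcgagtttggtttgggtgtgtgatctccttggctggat
H2-Eb1: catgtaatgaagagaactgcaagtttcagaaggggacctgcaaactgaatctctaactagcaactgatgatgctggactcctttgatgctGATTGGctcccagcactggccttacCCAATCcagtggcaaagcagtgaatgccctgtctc

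H2-D1 lies at chr17:35262944-35263093 on the plus strand, H2-T23 at chr17:36032702-36032851 on the minus strand, H2-Aa at chr17:34287824-34287973 on the minus strand and H2-Eb1 at chr17:34305717-34305866 on the plus strand. The motif starts 53 and 52 bases before the transcription start in H2-D1 and H2-T23, where it reads CCAATC, and 49 and 60 bases before it in H2-Aa and H2-Eb1, where it reads GATTGG. H2-Eb1 holds a further CCAATC starting 35 bases before the start. A promoter was given for 24 member genes, and searching both strands of the same window found the motif in 19 of them (79.2%), against 10.9% of all 32851 promoters. Among 8 class II genes it read GATTGG in 7, and among 15 class I genes it read CCAATC in 10. A match describes these letters in the reference and shows no binding in these cells.

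Jumps of a single replicate number ran through the class I genes. A jump was counted where the array of one number lay at least 1 log2 unit above both, or below both, of the other 2 arrays of its group, in the same direction with and without stimulation. Of the 67 member probe sets, 31 had one, against 14.5% of all probe sets on the array. Class I had 19 of 40 and class II 12 of 26. The remaining 36 member probe sets had none, and 8 had jumps at more than 1 number.

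**Figure D1:**
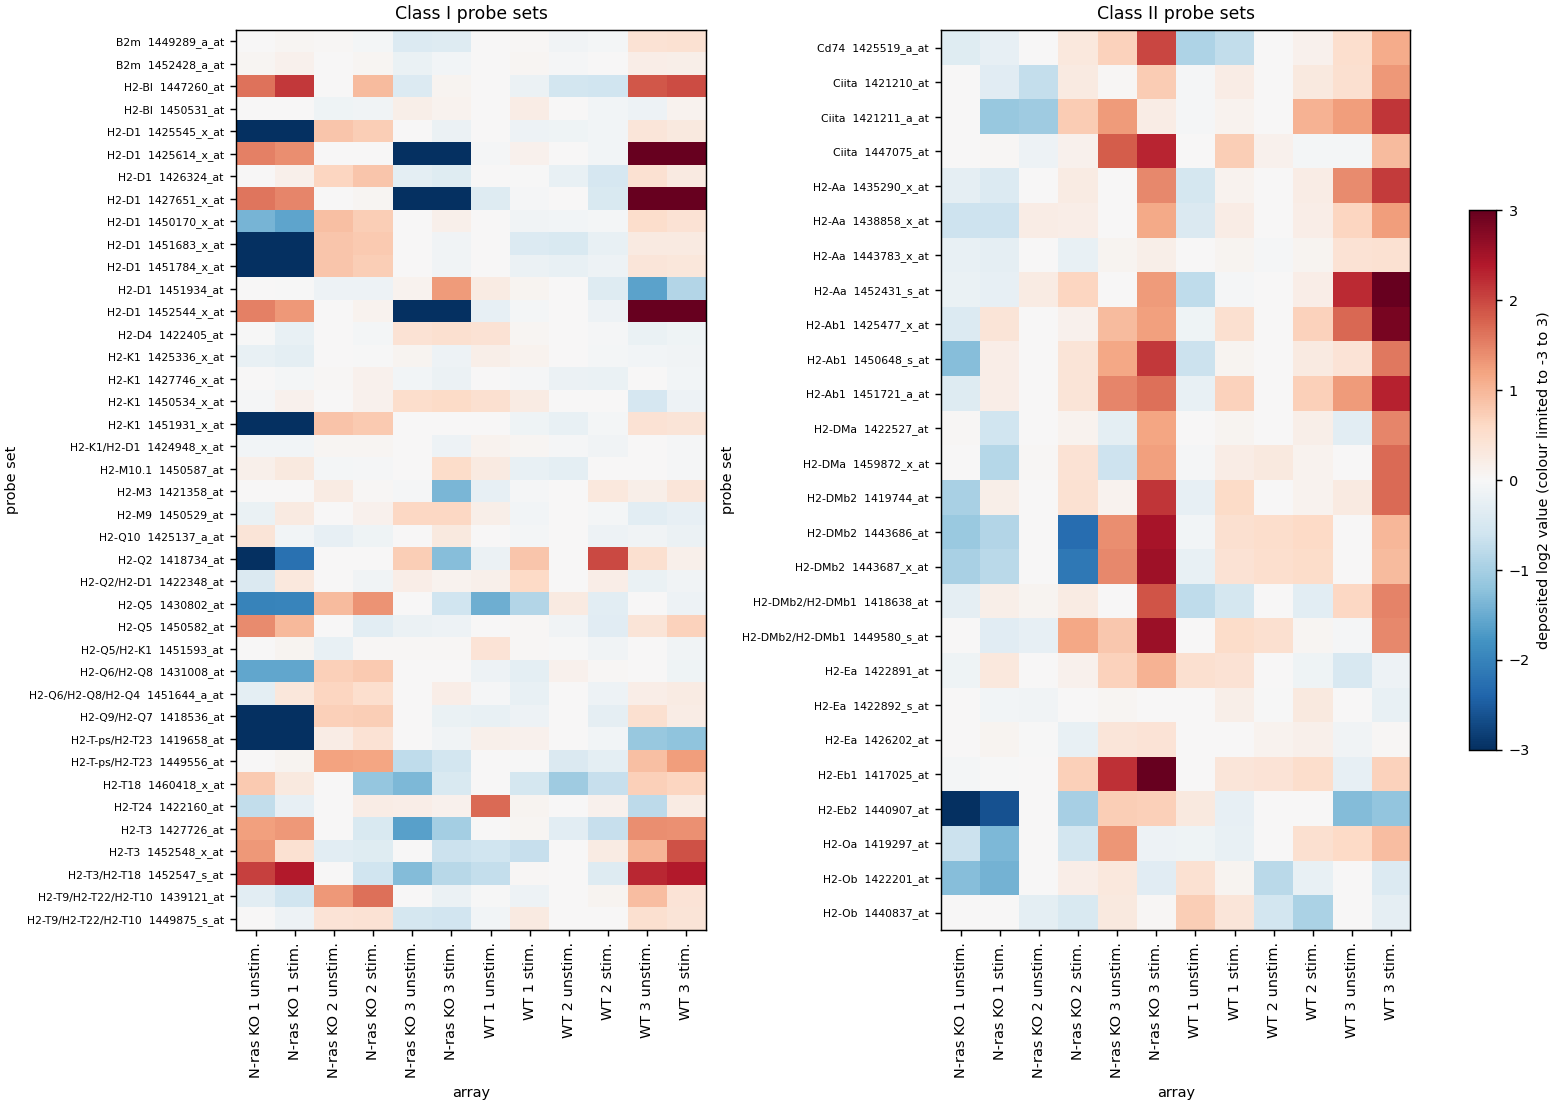
Deposited log2 values of 40 class I (left) and 26 class II (right) probe sets, 1 row each, on the 12 CD4+ T-cell arrays in columns; colour runs from -3 to 3 and values beyond are drawn at the limit. Of the class I rows, 16 jump at N-ras KO 1 (1.08% of all probe sets) and 8 at WT 3 (6.46% of all). At N-ras KO 3 only 3 do, all of H2-D1 (8.98% of all). Class II rows are mostly higher at number 3 of both genotypes.

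The N-ras KO 1 arrays carried most class I jumps. Here 18 member probe sets jumped, 16 of class I (9 lower and 7 higher) and 2 of class II (both lower), against 1.08% of all probe sets. Probe set 1425545_x_at of H2-D1, a classical heavy chain, read -5.88, 0.84 and 0.00 on unstimulated N-ras KO arrays 1 to 3 and -7.20, 0.75 and -0.16 on the stimulated ones. The same probe set stayed between -0.14 and 0.37 on the 6 WT arrays. Among the N-ras KO arrays, those of number 1 alone thus stood low, in both conditions. The WT values count from the WT median, so they do not tell whether WT cells stood higher than N-ras KO 1.

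Another 3 H2-D1 probe sets and 1 of H2-K1 were low at that number. For 1451784_x_at (H2-D1) the N-ras KO 1 values were -5.67 unstimulated and -6.38 stimulated. Those of 1451683_x_at (H2-D1) were -5.21 and -5.09, and those of 1451931_x_at (H2-K1) -5.61 and -5.75. A smaller drop, to -1.39 and -1.57, was read by 1450170_x_at (H2-D1). The other 2 N-ras KO numbers lay between -0.11 and 0.91 on these 4 probe sets, so they did not overlap number 1.

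The nonclassical genes gave the same picture at N-ras KO 1. Probe set 1418536_at, annotated to both H2-Q9 and H2-Q7 (the Qa-2 antigens), read -5.06, 0.71 and 0.00 unstimulated and -5.84, 0.73 and -0.19 stimulated. For 1419658_at, annotated to H2-T-ps and H2-T23 (H2-T23 encodes Qa-1, a ligand of inhibitory NK receptors), the values were -4.31, 0.23 and 0.00, and then -4.33, 0.44 and -0.11. Lower values at number 1 were also read by 1431008_at (H2-Q6 and H2-Q8; -1.57 in both conditions) and 1430802_at (H2-Q5; -1.98 with stimulation). In class II, H2-Eb2 was low at -3.04 and -2.62 and 1422201_at, annotated to H2-Ob and Gm20506, at -1.28 and -1.41.

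Other probe sets of the same genes were high where these were low. H2-D1 probe sets 1425614_x_at, 1427651_x_at and 1452544_x_at lay between 1.30 and 1.61 on the N-ras KO 1 arrays. On 1425614_x_at the unstimulated N-ras KO arrays read 1.52, 0.00 and -6.08 and the WT arrays -0.04, 0.00 and 7.09. Stimulated, they read 1.40, 0.02 and -6.21 in N-ras KO and 0.12, -0.09 and 7.09 in WT. All 3 of these H2-D1 probe sets therefore jumped at 3 numbers, up at N-ras KO 1, down at N-ras KO 3 and up at WT 3. H2-D1 was thus read as low and as high in the same N-ras KO 1 cells by different probe sets, and no single H2-D1 level can be given for them.

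**Figure D2:**
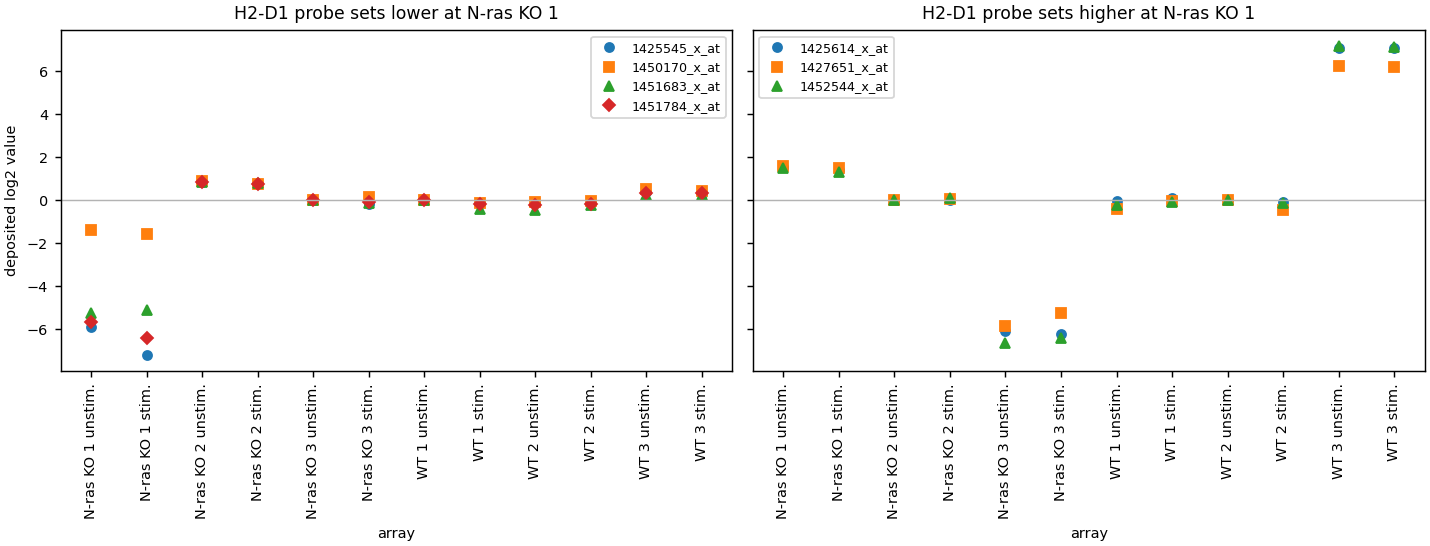
Deposited log2 values (vertical axis) of the 7 H2-D1 probe sets with a jump at N-ras KO 1 on the 12 CD4+ T-cell arrays (horizontal axis), 1 symbol per probe set. The 4 on the left lie between -7.20 and -1.39 at N-ras KO 1 and between -0.46 and 0.91 elsewhere, and the 3 on the right lie between 1.30 and 1.61 at N-ras KO 1, between -6.62 and -5.22 at N-ras KO 3 and between 6.19 and 7.18 at WT 3.

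H2-T3, which encodes the thymus leukaemia antigen, was high at both N-ras KO 1 and WT 3 on 1427726_at and 1452547_s_at. So was 1 of the 2 probe sets of the pseudogene H2-Bl. On 1452548_x_at (H2-T3) only WT 3 jumped, and N-ras KO 1 read 1.31 unstimulated and 0.47 stimulated. Probe set 1460418_x_at (H2-T18) had no jump. Probe set 1452547_s_at (H2-T3 and H2-T18) read 2.06, 0.00 and -1.30 on unstimulated N-ras KO arrays and -0.72, 0.00 and 2.25 on WT arrays. With stimulation it read 2.37, -0.60 and -0.83 and then 0.02, -0.40 and 2.37. Probe set 1447260_at, annotated to H2-Bl and also to Gm38417 and LOC547349, read 1.63 and 2.11 at N-ras KO 1 and 1.87 and 1.95 at WT 3. The probe set annotated to H2-Bl alone, 1450531_at, had no jump and stayed between -0.15 and 0.23. Of the H2-Q5 probe sets, 1450582_at was high at N-ras KO 1 (1.41 and 0.98), the opposite of 1430802_at.

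Fewer members jumped elsewhere. At N-ras KO 2, 2 probe sets did, against 0.725% of all: 1449556_at (H2-T-ps and H2-T23; 1.20 and 1.19) and 1439121_at (H2-T9, H2-T22 and H2-T10; 1.30 and 1.65), both higher. At N-ras KO 3, 9 did, against 8.98% of all, namely the 3 H2-D1 probe sets that were lower and 6 of class II that were higher. At WT 3, 13 did, against 6.46% of all, 12 of them higher. No member jumped at WT 1 or WT 2, where 488 and 340 of all probe sets did.

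B2m, the shared light chain, had no jump. Its 2 probe sets lay between -0.40 and 0.45 on all 12 arrays. H2-K1 probe sets 1425336_x_at and 1427746_x_at stayed between -0.30 and 0.18, and 1424948_x_at, annotated to both H2-K1 and H2-D1, between -0.14 and 0.10. These H2-K1 probe sets were thus flat where 1451931_x_at, annotated to the same gene, was low. Whether probes of different H2 alleles or copies took part in the jumps was not tested, and 15 of the 67 probe sets are annotated to more than 1 gene.

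Few probe sets on the array moved as far. With the limit raised to 4 log2 units, a value chosen after the data were seen, 44 of all probe sets (0.0976%) had a jump, and 9 of them were members, all of class I. At N-ras KO 1 there were 11, of which 6 were members, 1 was of Vps52, a vesicle transport gene shortly before H2-K1 in the reference gene order, and 3 were of Xist, the RNA that silences an X chromosome in females. Xist probe set 1436936_s_at read -6.26, 0.00 and 0.14 on unstimulated N-ras KO arrays and -7.46, 0.00 and 0.20 on WT arrays, and it was low at the same numbers with stimulation (-7.05 at N-ras KO 1 and -6.32 at WT 1). Xist was thus low at N-ras KO 1, where class I jumped, and at WT 1, where no member did, and its part was not tested. Leaving out the jumps of N-ras KO 3 and WT 1, 26 of 67 member probe sets had one of at least 1 log2 unit.

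Other genes of the complex were compared with the members through 162 probe sets of 102 genes that the reference order places between the H2 genes. Of these, 35 had a jump (21.6%, against 14.5% of all probe sets), and at N-ras KO 1 there were 8 (4.94%, against 1.08%), all lower. They belonged to Ddr1, a collagen receptor (5 probe sets), D17H6S56E-5 (2) and Prr3 (1). On Ddr1 probe set 1456226_x_at the N-ras KO arrays read -3.07, 0.00 and 0.51, and -5.32, 0.10 and 0.03 with stimulation. The reference order puts 4 members, H2-Q8, H2-D4, H2-Q9 and H2-T18, far from the rest, and they were not used as bounds. With them as bounds the list grew to 850 probe sets, of which 171 had a jump (20.1%) and 18 at N-ras KO 1 (2.12%).

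**Figure D3:**
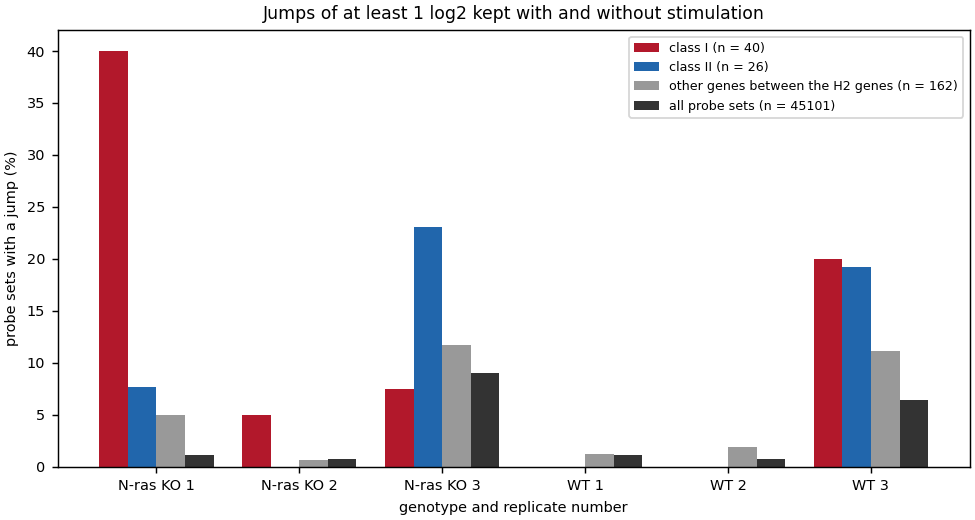
Share of probe sets (vertical axis, %) with a jump of at least 1 log2 unit kept with and without stimulation, for each genotype and replicate number, in 4 sets of probe sets. At N-ras KO 1 the bar of class I is at 40%, against 7.69% of class II, 4.94% of other genes between the H2 genes and 1.08% of all probe sets.

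Genes that load peptides onto class I had no jump at N-ras KO 1. None of 26 probe sets of 14 such genes jumped at that number, against 1.08% of all probe sets. At that array-wide share a list this short may hold none. At number 3 of either genotype 6 jumped, against 8.98% of all probe sets at N-ras KO 3 and 6.46% at WT 3. Among the peptide transporter subunits, 1 of 4 Tap1 probe sets (1416016_at, -1.33 and -1.19) and the Tap2 probe set (-1.57 and -1.89) were lower at N-ras KO 3, and Tap2 was higher at WT 3. The other 3 Tap1 probe sets lay between 0.00 and 0.21 at N-ras KO 3, and 1 probe set each of the chaperones Tapbp (1.49 and 1.27) and Pdia3 (2.03 and 1.45) was higher there. Of 12 probe sets of 9 MHC-like genes outside the complex, such as Mr1 and Cd1d1, none jumped at any number, against 14.5% of all. Nor did any of 20 probe sets of interferon-response genes jump at N-ras KO 1, against the same 1.08% of all. Their median there was 0.00 unstimulated and -0.10 stimulated.

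Class II genes stood high at number 3 of both genotypes, most of all with stimulation. At N-ras KO 3, the class II median was 0.53 unstimulated and 1.22 stimulated, and at WT 3 it was 0.14 and 1.18. The other 8 arrays had class II medians between -0.26 and 0.21, a range that also holds unstimulated WT 3. H2-Eb1, a beta chain, read -0.05, 0.00 and 2.20 on unstimulated N-ras KO arrays and -0.02, 0.71 and 3.46 on stimulated ones, with WT arrays between -0.25 and 0.69. H2-Aa, an alpha chain, was high at WT 3, where 1452431_s_at read -0.75, 0.00 and 2.23 on unstimulated and -0.04, 0.19 and 3.18 on stimulated WT arrays. On N-ras KO arrays it read -0.20, 0.24 and 0.00 unstimulated and -0.23, 0.65 and 1.28 stimulated, so number 3 was highest there with stimulation only. H2-Ab1 was high in both, with 1451721_a_at at 1.46 and 1.66 on N-ras KO 3 and 1.28 and 2.30 on WT 3.

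Among the class II regulators and chaperones, Ciita probe sets disagreed. Probe set 1447075_at was high at N-ras KO 3 (1.82 and 2.27), 1421211_a_at at WT 3 (1.25 and 2.14), and 1421210_at had no jump. Cd74 was highest at number 3 in both genotypes, at 0.69 unstimulated on N-ras KO 3 and 0.50 and 1.11 on WT 3, but its unstimulated gaps were under the limit for a jump. H2-DMb2, a subunit of the peptide editor, was high at N-ras KO 3 on 1443686_at (1.39 and 2.46) and on 1443687_x_at (1.44 and 2.53). The 3 probe sets of H2-Ea, the alpha partner of H2-Eb1, had no jump. The reference gene order lists H2-Ea as a transcribed pseudogene, and these values do not tell whether it was expressed.

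Some markers of B cells, which make class II, moved at the same number. Of 23 probe sets of 9 B-cell marker genes, 3 were higher at N-ras KO 3 and 4 at WT 3, including Ms4a1 (CD20) and Fcer2a (CD23) at both. None was lower there, and 8.98% and 6.46% of all probe sets jumped at these numbers in either direction. The median of the B-cell markers was 0.00 on unstimulated and 0.32 on stimulated N-ras KO 3. It was 0.21 and 0.30 on WT 3 and -0.38 on stimulated WT 1. On stimulated N-ras KO 3, markers of dendritic cells and macrophages and of thymic epithelium also had medians of 0.32, and all probe sets 0.14. On stimulated WT 3 these medians were 0.04, -0.14 and -0.10. T-cell markers had medians of -0.12 on stimulated N-ras KO 3 and 0.47 on stimulated WT 3. Of 16 probe sets of dendritic cell and macrophage markers, 1 jumped, Lyz2, against 14.5% of all probe sets with a jump at any number. The Lyz2 probe set was lower at N-ras KO 3 and WT 2 and higher at WT 3. The part of such cells in the class II values was not tested, and in bulk cells a change in the number of cells of a type and in RNA per cell cannot be told apart.

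The response to the low-level TCR stimulus was compared between arrays of the same number. In WT, 16 of 26 class II probe sets were higher in all 3 pairs, against 14.5% of all probe sets, and 1 was lower in all 3, against 13.5%. The class II median difference was 0.50 log2, against 0.00 over all probe sets. In N-ras KO, 9 were higher in all 3 pairs, against 13.8% of all, and 1 was lower, against 12.9%, with a median of 0.35, against 0.01 over all probe sets. The class I medians were -0.05 for WT and -0.01 for the N-ras KO pairs.

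Asking also for a mean of at least 1.5-fold left 7 member probe sets higher in WT, all of class II, against 2.69% of all probe sets, and none lower, against 2.85%. H2-Ab1 accounted for 3 of them. Its probe set 1451721_a_at differed by 0.91, 0.71 and 1.02 in WT pairs 1 to 3, a mean of 0.88 ± 0.16 (SD, n = 3), and by 0.60, 0.38 and 0.21 in N-ras KO, a mean of 0.40 ± 0.20 (SD, n = 3). H2-DMb2 (1419744_at) had a WT mean of 0.79 ± 0.66 (SD, n = 3) and Ciita (1421211_a_at) one of 0.69 ± 0.47 (SD, n = 3). The other 2 were H2-DMa (1422527_at, mean 0.68), the partner of H2-DMb, and H2-Aa (1452431_s_at, mean 0.62). The count of 7 became 4 without pair 3, 14 without pair 2 and 6 without pair 1, whose Nras value went against its label.

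In N-ras KO, 5 member probe sets were higher by that rule, against 3.44% of all, and 1 was lower, against 3.91%. The higher ones were H2-DMb2 (1419744_at, mean 1.21 ± 0.79, SD, n = 3), H2-Ab1 (1450648_s_at, 0.95), 1418638_at of H2-DMb2 and H2-DMb1 (0.83), H2-Eb1 (0.67) and, in class I, H2-Bl (1447260_at, 0.64). H2-Oa, which restrains the peptide editor in B cells, was the lower one, with differences of -0.70, -0.54 and -1.49, while its WT pairs read -0.09, 0.47 and 0.32. Cd74 differed by 0.19, 0.13 and 0.61 in WT and by 0.10, 0.33 and 1.31 in N-ras KO, higher in every pair but by a mean under 1.5-fold. The 6 N-ras KO probe sets, both directions together, became 14 without pair 1, 11 without pair 2 and 6 without pair 3, whose Nras value went against its label.

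**Figure D4:**
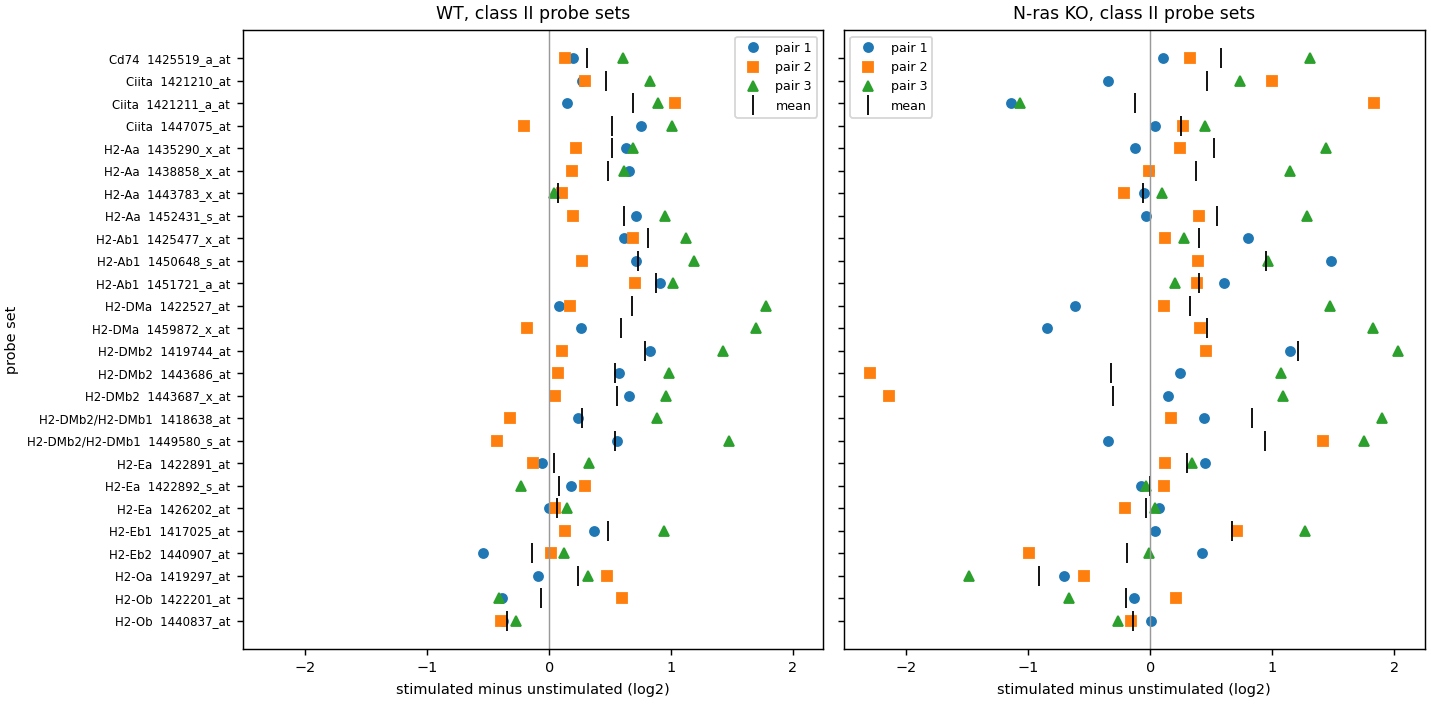
Stimulated minus unstimulated log2 difference (horizontal axis) of 26 class II probe sets (rows) in WT (left) and N-ras KO (right), with 1 symbol for each of the 3 pairs and a bar for their mean. In WT 16 rows have all 3 pairs above 0, and in N-ras KO 9 rows do.

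None of these differences passed the test across the array. In limma, over all 12 arrays with Benjamini-Hochberg adjustment over 45101 probe sets, no member and no other probe set (0%) passed an adjusted p of 0.05 for the response in WT, the response in N-ras KO, the difference of the responses or the stimulated WT minus N-ras KO comparison. The smallest adjusted p of a member was 0.629 in limma, for H2-Q2. At an unadjusted p of 0.05 with at least 1.5-fold, no member was counted for the WT response (1.04% of all probe sets), the N-ras KO response (2.34%) or the difference of responses (1.29%), and 1 for stimulated WT minus N-ras KO (6.9%). That was H2-Q2, which read -2.24, 0.01 and -1.28 on stimulated N-ras KO arrays and 0.84, 1.99 and 0.15 on stimulated WT arrays, a difference of 2.16 ± 0.90 log2 (SE). Unstimulated, the N-ras KO arrays read -2.99, 0.00 and 0.74, so N-ras KO 1 was low in both conditions.

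Fitting each replicate number as a block within its genotype changed these unadjusted counts and no adjusted call. The shares of all probe sets under the block are not given here, so the member counts cannot be set against them. With that block the counts of members were 3 for WT, all H2-Ab1, and 5 for N-ras KO, and the largest of the H2-Ab1 WT responses, 0.88 ± 0.14 log2 (SE), had an adjusted p of 1.00 in limma. H2-Oa differed between the responses by 1.14 ± 0.32 log2 (SE), at an adjusted p of 0.961 in limma.

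Genes that serve class II were counted in the same way. Of 36 probe sets of 16 genes for class II control, processing and costimulation, 4 were higher by the paired rule in WT and 1 was lower, against 2.69% and 2.85% of all probe sets. In N-ras KO 1 was higher and 2 were lower, against 3.44% and 3.91%. The higher ones in WT were 2 of Cd40 (1.00 and 0.67), 1 of Cd86 (0.92) and Ifi30 (0.69), a thiol reductase of the class II pathway. Marchf1, a ubiquitin ligase that removes class II from the surface, had means of -0.62 (WT) and 0.88 (N-ras KO) on 1434955_at, each with 1 sign in all 3 pairs. N-ras KO pair 2 hardly moved there, from -0.59 to -0.52. B-cell markers went both ways. By the paired rule 5 of 23 probe sets were higher and 1 lower in WT, and 2 were higher and none lower in N-ras KO. Fcer2a (1422122_at) had a mean of 2.89 for WT pairs and 1.48 for N-ras KO pairs, and Ms4a1 (1450912_at) had 0.92 and 0.07. Of the 11 probe sets of Ighm, the heavy chain of IgM, 5 had means between -1.45 and -0.64 in WT and between -2.60 and -1.74 in N-ras KO, of which 1 (1427869_at in WT) met the paired rule. Their part in the class II differences was not tested.

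In thymocytes, single class I probe sets set each genotype apart. Here the baseline was the median of the 3 arrays, so the genotypes can be compared, and with 1 array each the differences have no replicate check. WT and N-ras KO differed at least 1.5-fold on 16 of 57 member probe sets, against 2.64% of all probe sets, 14 of them of class I. WT and H-ras KO differed on 20, against 2.97% of all, 18 of them of class I. The 2 comparisons share the WT array.

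The same 3 H2-D1 probe sets that jumped at 3 numbers in CD4+ T cells were high in N-ras KO thymocytes. Probe set 1425614_x_at read 0.00 in WT, 4.49 in N-ras KO and -0.09 in H-ras KO, 1427651_x_at read 0.00, 4.67 and -0.20, and 1452544_x_at read 0.00, 4.88 and -0.46. The H2-D1 and H2-K1 probe sets that had been low at N-ras KO 1 differed less. WT exceeded N-ras KO by 1.11 on 1425545_x_at, 1.24 on 1451683_x_at, 1.15 on 1451784_x_at and 1.12 on 1451931_x_at (H2-K1). On these WT also exceeded H-ras KO, by 0.71, 0.86, 0.76 and 0.72 in that order. On 1450170_x_at (H2-D1) WT exceeded N-ras KO by 0.31 and H-ras KO by 0.42.

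WT thymocytes stood alone on 1451593_at, annotated to H2-Q5 and H2-K1, at 5.81, with -0.05 in N-ras KO and 0.00 in H-ras KO. H2-Q5 (1450582_at) read 1.80, 0.00 and -0.60 in the same order, H2-D1 (1426324_at) 1.27, 0.00 and -0.05, and H2-D4 1.20, -0.32 and 0.00. On the CD4+ T-cell arrays 1451593_at had no jump and stayed between -0.23 and 0.41. Of 9 H2-T probe sets, 6 were instead highest in H-ras KO and 3 lowest there. Of the 6, 1419658_at (H2-T-ps and H2-T23) read 3.18, with -0.24 in WT and 0.00 in N-ras KO, and 1439121_at (H2-T9, H2-T22 and H2-T10) read 1.79, with -0.59 and 0.00. The lowest of the 3 was 1452547_s_at (H2-T3 and H2-T18), at -0.64, with 0.00 in WT and 0.47 in N-ras KO. H2-Q2 was highest in WT and lowest in N-ras KO, 1.69 log2 apart.

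B2m differed little in thymocytes, and class II was mostly lowest in H-ras KO by small amounts. B2m values ran from -0.20 to 0.11. Class II passed 1.5-fold on 2 of 18 probe sets in each comparison with WT, against 2.64% of all for N-ras KO and 2.97% for H-ras KO. WT was above H-ras KO on 14 of the 18 and below it on 1, with a median difference of 0.21. Class I leaned the same way, with WT above on 29 of 38, below on 7 and a median of 0.20. Over all 22690 probe sets WT was above on 7242 and below on 7474, with a median of 0.00. On class II, H-ras KO was below N-ras KO on 15 of the 18 and above it on none, with a median of -0.39. On class I it was above on 18 and below on 18, and the median over all probe sets was 0.00. Of class II, 4 (Cd74, H2-Aa and 2 probe sets annotated to H2-DMb2) passed 1.5-fold, against 2.42% of all probe sets. H2-Eb1 was 0.85 log2 higher in N-ras KO than in WT, WT exceeded H-ras KO by 1.31 on H2-Aa (1452431_s_at), and H2-Ea (1422892_s_at) was 0.71 higher in WT than in either knockout. Cd74 read 0.00 in WT, 0.09 in N-ras KO and -0.57 in H-ras KO. Among 22 B-cell marker probe sets, the H-ras KO array was below WT by 1.5-fold or more on 3 and above it on 4, and the part of such cells was not tested.

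**Figure D5:**
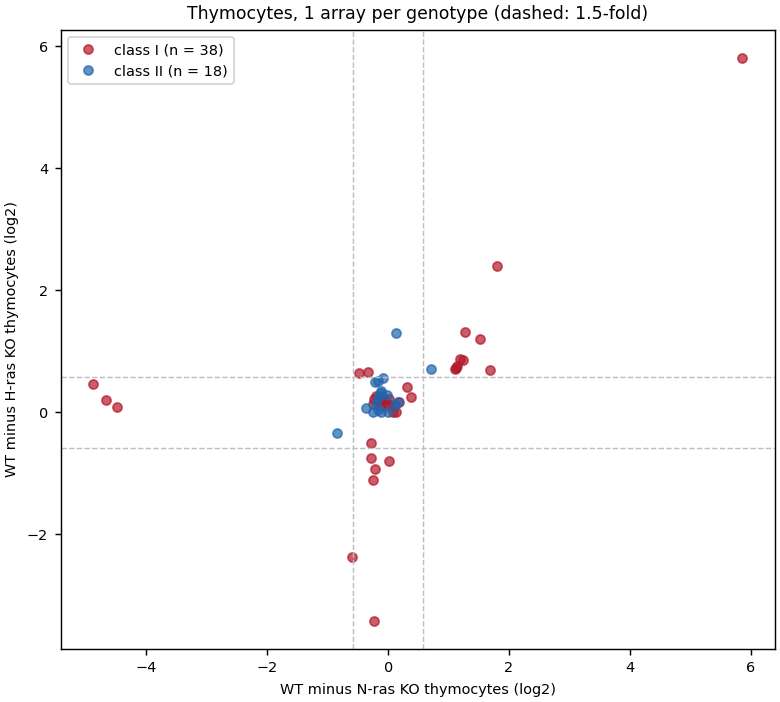
WT minus N-ras KO (horizontal axis) against WT minus H-ras KO (vertical axis) log2 differences of 38 class I and 18 class II probe sets in thymocytes, 1 array per genotype, with dashed lines at 1.5-fold. The 3 H2-D1 probe sets lie at the far left, between -4.49 and -4.88, and the H2-Q5 and H2-K1 probe set lies alone at the upper right, at 5.86 and 5.81.

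Some other genes between the H2 genes differed in thymocytes by at least 1.5-fold. For N-ras KO it was 7 of 132 probe sets (5.3%, against 2.64% of all), and for H-ras KO 11 (8.33%, against 2.97%). The 4 past 4-fold in each comparison were of the heat-shock genes Hspa1a and Hspa1b. WT was higher on them by 4.04 to 5.33 log2 than N-ras KO and by 3.20 to 3.52 than H-ras KO. Peptide loading genes passed 1.5-fold on 0 of 22 probe sets for N-ras KO and on 1 for H-ras KO, Irf1, at 0.65.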

How the data were processed

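Per the labels, the authors hybridised biotin-labelled cRNA to Affymetrix arrays and processed it in GeneSpring with its RMA algorithm. Low-yield cRNA was amplified first, and which arrays this touched is not given. The deposited values are log2 intensities with a baseline subtracted, so background correction, a filter on dim probes and a scan or slide block could not be run, and precision rests on how many arrays there are. The members and gene lists were chosen with earlier results of these data known. Probe sets were named from GEO's platform annotation. The list of neighbours departs from the planned one: the reference gene order starts 4 member genes far from the others without saying why, so the region was bounded by members within 10 Mb of the median member start, and the planned bounds were run beside it. Groups were compared in limma 3.58.1 (R 4.3.3), 1 mean per group over 12 arrays, with Benjamini-Hochberg adjustment. Tested on simulated data for the stimulated WT minus N-ras KO comparison (45101 probe sets), the fit called 3, 28, 36 and 48 of 50 at log2 changes of 1, 2, 3 and 4. Same-numbered unstimulated and stimulated arrays of a genotype deviated together (correlations of 0.361 to 0.738), so the numbers were taken as pairs within a genotype. By the methods, the repetitions of a condition came from different mice. The named probe sets were H2-K1, H2-D1, H2-Aa, H2-Ab1, H2-Eb1, H2-Ea, B2m, Cd74, Ciita and Nras, members with a jump, members past 1.5-fold with 1 sign in all pairs or in thymocytes, and up to 4 of each list.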

Additional observations from a re-analysis of the deposited data

Results flagged for a closer look

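Marchf1, whose product removes class II molecules from the cell surface, was lower with stimulation in all 3 WT pairs and higher in all 3 N-ras KO pairs on probe set 1434955_at. The mean paired difference in WT minus that in N-ras KO was -1.502 log2, and this difference was singled out because every pair of one genotype went one way and every pair of the other the opposite way, without a test of the difference. The N-ras KO 2 arrays hardly differed, at -0.59 unstimulated and -0.52 stimulated. N-ras KO 3 and WT 1, whose Nras values went against the labels, are among these pairs, and the difference was not computed without them. The same probe set was also high at N-ras KO 3 in both conditions (3.64 and 5.06). The other 2 Marchf1 probe sets did not show opposite signs in all pairs. On 1431367_at the means were -0.04 in WT, with pairs of both signs, and 0.41 in N-ras KO. On 1440209_at they were -0.36 and -0.15.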

How the results depend on the processing

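No member passed the adjusted threshold in limma under any alternative run for the 4 comparisons, the block included. With the number as a replicate block across genotypes, the unadjusted counts at 1.5-fold were 3 for stimulated WT minus N-ras KO, 2 for the WT response, 3 for the N-ras KO response and 1 for their difference. With the block within genotype they were 2, 3, 5 and 3. The shares of all probe sets under these alternatives are not given here. For stimulated WT minus N-ras KO the count of 1 became 0 in the methods' t-test, 2 with only the compared groups, 2 with array quality weights and 3 without the N-ras KO 3 and WT 1 arrays, and it ranged from 0 to 3 with 1 array left out. Leaving out 1 array gave 0 to 2 for the N-ras KO response and 0 to 2 for the difference of responses, and quantile normalization gave 1 for the N-ras KO response. The 31 jumps became 12 at 2 log2, 9 at 4 log2 and 16 without _x_at and _s_at probe sets. Without those probe sets the thymocyte counts were 8 for N-ras KO and 12 for H-ras KO, and at 2-fold 8 for H-ras KO. The paired counts became 0 in WT and 1 in N-ras KO at 2-fold, and ranged from 4 to 14 in WT and 6 to 14 in N-ras KO with 1 pair left out (14 without WT 2, 4 without WT 3, 14 without N-ras KO 1 and 11 without N-ras KO 2). The causes were not tested. Jumps cannot be computed with an array left out, and thymocytes have no replicate to leave out.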
